A study of Mus musculus with 12 samples.

Results

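Among 7 lactating mammary glands that lack butyrophilin 1a1 (Btn1a1), the acute-phase gene Saa2 stood at 8 log2 CPM or more in 4 glands and under 6 in the other 3, and these 2 classes of knockout (KO) gland are compared here. The classes were chosen by the Saa2 level alone, and they hold 7 of the 12 glands of the study. The high-Saa2 class is KO replicates 1, 2, 3 and 4, and the low-Saa2 class is KO replicates 5, 6 and 7. All genes of the table except Saa1 and Saa2 were compared between the classes, 11832 of 11834. Because the classes were selected on one readout of the same libraries, a p-value here describes how far these 7 libraries separate and tests no treatment.

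All mice were C57BL/6 in their lactation 1, each gave 1 polyA RNA library of the mammary gland, and genotype is the only treatment the labels name. The KO mice are labelled Btn1a1-/-, and the 5 wild-type (WT) glands serve only as a reference level. High-Saa2 glands were taken on day 10 (replicates 1 and 2), day 8 (replicate 3) and day 11 (replicate 4), and all 3 low-Saa2 glands on day 10. WT glands were taken on day 10 (replicates 1, 4 and 5), day 9 (replicate 2) and day 11 (replicate 3). Per the labels, mutant and wild-type mice came from separate matings and were on 1 of 2 diets, with no record here of which mouse had which diet. The mouse numbers were 204 to 306 in the high-Saa2 class and 309 to 328 in the low-Saa2 class, so any factor that follows these numbers cannot be told apart from the Saa2 class. Values are log2 CPM, reads scaled to a common library total, on a log2 scale, and a difference of 1 is a 2-fold difference.

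The mammary gland in lactation consists mostly of alveolar epithelial cells that secrete milk protein and fat. Serum amyloid A proteins, haptoglobin, orosomucoids and lipocalin 2 are acute-phase proteins, made chiefly by the liver in systemic inflammation but also by epithelia, the mammary epithelium among them. Their genes are known targets of the C/EBP, Stat3 and NF-kB families of transcription factors. In the mammary gland several of them are induced when milk removal stops and involution begins, and in mastitis.

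Saa2 stood at 9.21, 10.86, 8.66 and 10.75 log2 CPM in the 4 high-Saa2 glands and at 5.48, 3.15 and 2.14 in the 3 low-Saa2 glands. The gland just inside the high class was KO replicate 3, at 8.66, and the gland just inside the low class was KO replicate 5, at 5.48. In WT, Saa2 ran from -2.34 to 0.45, so the low-Saa2 glands also lay above every WT gland. Saa1, the neighbouring paralog, stood at 9.62, 10.94, 9.04 and 10.80 in the high-Saa2 glands, at 6.13, 4.11 and 2.55 in the low-Saa2 glands and between -1.35 and 1.52 in WT. The order of the 7 KO glands was the same for both genes. Both encode acute-phase apolipoproteins of high-density lipoprotein, and their longest annotated transcripts are 87.4% identical, so the split of reads between them is uncertain. They defined the classes and are given as a description, with no test.

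Saa3, the serum amyloid A gene made mainly outside the liver, stood at 5.69, 6.34, 4.33 and 5.74 in the high-Saa2 glands and at 2.34, 0.21 and -2.29 in the low-Saa2 glands. WT glands ran from -3.17 to 2.66. The classes did not overlap, and the low-Saa2 glands lay within the WT range. The difference was 5.44 (SE 1.08), or 43.3-fold as a ratio of geometric means, the largest among genes with non-overlapping classes, an ordinary symbol and a KO mean of 1 log2 CPM or more. It did not pass the threshold by limma (adjusted p = 0.234). The spread between glands was wide in the low-Saa2 class, with an SD of 2.32 against 0.85 in the high-Saa2 class. The Saa genes lie together on mouse chromosome 7 (GRCm38): Saa3 from 46711998 to 46715700, Saa1 from 46740497 to 46742980 and Saa2 from 46751790 to 46754313.

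The promoters of 9 genes were searched for motifs: Saa1, Saa2, Saa3, Lcn2, Orm2, Cxcl1, Nnat, Chil1 and Clca3a1, chosen after their values were seen. Hp and Orm1 could not be searched, because the promoter source used held no entry for them. All 9 stood higher in the high-Saa2 glands, and the first 7 are shown. For Saa2 this follows from the choice of the classes, and Saa1 is its paralog, also left out of the test. Each run is 300 bases, from 250 before to 50 after the RefSeq start (GRCm38.p6), 5′ to 3′. Capitals mark a match on either strand to the C/EBP motif TTGCNNAA or to the 10-base NF-kB consensus. The STAT motif TTCNNNGAA was searched as well.
Saa2, chr7:46751583-46751882, plus strand: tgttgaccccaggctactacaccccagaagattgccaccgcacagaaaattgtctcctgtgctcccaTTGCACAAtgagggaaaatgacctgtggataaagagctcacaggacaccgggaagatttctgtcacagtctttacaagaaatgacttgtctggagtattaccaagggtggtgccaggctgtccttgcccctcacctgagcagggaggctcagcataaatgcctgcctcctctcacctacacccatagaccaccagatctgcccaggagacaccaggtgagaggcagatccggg
Saa1, chr7:46742931-46743230, minus strand: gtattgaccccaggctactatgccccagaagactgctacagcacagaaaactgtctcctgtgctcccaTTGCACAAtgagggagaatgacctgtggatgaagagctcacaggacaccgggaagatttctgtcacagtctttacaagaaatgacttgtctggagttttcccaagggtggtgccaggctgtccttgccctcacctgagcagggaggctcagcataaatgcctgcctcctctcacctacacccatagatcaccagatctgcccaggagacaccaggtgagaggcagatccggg
Saa3, chr7:46715627-46715926, minus strand: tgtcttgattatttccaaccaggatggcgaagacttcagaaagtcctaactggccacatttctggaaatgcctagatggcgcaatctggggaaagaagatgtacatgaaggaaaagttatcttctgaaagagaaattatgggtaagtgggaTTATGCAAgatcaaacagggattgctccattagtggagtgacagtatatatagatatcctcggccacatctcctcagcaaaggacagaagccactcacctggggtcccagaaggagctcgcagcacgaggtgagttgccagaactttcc
Lcn2, chr2:32387690-32387989, minus strand: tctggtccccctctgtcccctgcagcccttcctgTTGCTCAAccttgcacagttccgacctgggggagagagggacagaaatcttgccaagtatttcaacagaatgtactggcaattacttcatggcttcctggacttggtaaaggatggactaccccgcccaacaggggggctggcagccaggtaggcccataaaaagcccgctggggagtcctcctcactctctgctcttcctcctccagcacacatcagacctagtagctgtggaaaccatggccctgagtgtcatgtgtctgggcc
Orm2, chr4:63362199-63362498, plus strand: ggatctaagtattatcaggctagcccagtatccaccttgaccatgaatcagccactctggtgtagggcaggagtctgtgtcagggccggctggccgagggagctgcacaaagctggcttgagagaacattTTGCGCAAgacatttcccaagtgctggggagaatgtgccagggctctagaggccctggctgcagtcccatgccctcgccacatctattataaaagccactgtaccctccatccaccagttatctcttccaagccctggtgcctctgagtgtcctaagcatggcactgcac
Cxcl1, chr5:90890995-90891294, plus strand: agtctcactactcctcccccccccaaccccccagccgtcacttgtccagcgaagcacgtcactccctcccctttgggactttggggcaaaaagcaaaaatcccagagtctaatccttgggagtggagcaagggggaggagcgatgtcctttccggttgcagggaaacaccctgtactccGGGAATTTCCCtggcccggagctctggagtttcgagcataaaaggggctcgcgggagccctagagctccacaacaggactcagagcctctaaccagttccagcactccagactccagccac
Nnat, chr2:157559828-157560127, plus strand: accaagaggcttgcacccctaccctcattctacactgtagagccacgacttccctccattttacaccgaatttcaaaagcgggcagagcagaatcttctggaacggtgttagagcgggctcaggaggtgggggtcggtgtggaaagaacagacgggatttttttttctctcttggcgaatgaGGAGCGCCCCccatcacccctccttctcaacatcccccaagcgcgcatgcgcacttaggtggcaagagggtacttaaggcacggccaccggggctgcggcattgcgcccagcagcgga
The Saa1 and Saa2 promoters were 95.3% identical, whereas the Saa3 promoter was 48.7% identical to that of Saa2. The C/EBP motif was found in 5 of the 9 windows, not in those of Cxcl1, Nnat, Chil1 and Clca3a1, and it occurs in 10.8% of all 32851 promoters of the table. It began 183 bases before the start in Saa2 and 182 before it in Saa1, with the same 8 letters, and 99 bases before the start in Saa3, on the opposite strand. The nearly identical Saa1 and Saa2 windows are both among the 5, so they are not separate instances. In Orm2 the match reads the same on both strands. The NF-kB consensus was found in 3 of the 9, against 8.46% of all promoters, beginning 71 bases before the start in Cxcl1, 68 before it in Nnat and 179 before it in Chil1. The STAT motif was found in 0 of the 9, against 8.3% of all promoters. A match describes these letters and does not show that a factor binds there.

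Between the classes 2 genes passed the threshold of an adjusted p under 0.05 by limma, 0.0169% of the 11832 tested, and both rose in the high-Saa2 glands (0.0169% higher, 0% lower). The smallest adjusted p among genes lower in the high-Saa2 glands was 0.140. An unadjusted p under 0.05 was reached by 1201 genes (10.2%), 594 higher and 607 lower.

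Hp, which encodes haptoglobin, the plasma protein that binds free haemoglobin, rose in the high-Saa2 glands. Its level was 3.71, 3.59, 3.69 and 4.09 in the high-Saa2 glands and 2.11, 2.42 and 2.29 in the low-Saa2 glands. The low-Saa2 glands lay within the WT range of 1.99 to 3.48, in which WT replicate 2 held the highest value and the other 4 ran from 1.99 to 2.29. The difference was 1.50 (SE 0.15, adjusted p = 0.0138 by limma), or 2.82-fold. Hp (ENSMUSG00000031722.10) lies on mouse chromosome 8 from 109575128 to 109579172 (GRCm38).

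Nnat, which encodes neuronatin, a small membrane proteolipid of the endoplasmic reticulum from an imprinted locus, was the other gene that rose. It stood at 3.54, 3.06, 2.68 and 3.43 in the high-Saa2 glands and at 1.33, 1.26 and 1.33 in the low-Saa2 glands, and ran from -0.48 to 2.10 in WT. The difference was 1.87 (SE 0.20, adjusted p = 0.0189), or 3.66-fold. Nnat lies on chromosome 2 from 157560078 to 157562522 (GRCm38), inside the Blcap gene on the opposite strand, and no source used here says that reads were counted by strand.

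Both calls rest on the particular 7 libraries. They ended without KO replicate 6 (adjusted p = 0.0732 for Hp and 0.189 for Nnat) and without KO replicate 7 (0.165 and 0.189). Without KO replicate 5 neither passed (0.0632 and 0.0728), and Nnat alone lost its call without KO replicate 2 (0.0577) or KO replicate 4 (0.0526). The differences themselves ran from 1.39 to 1.57 for Hp and from 1.75 to 2.04 for Nnat when 1 library was left out.

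**Figure D1:**
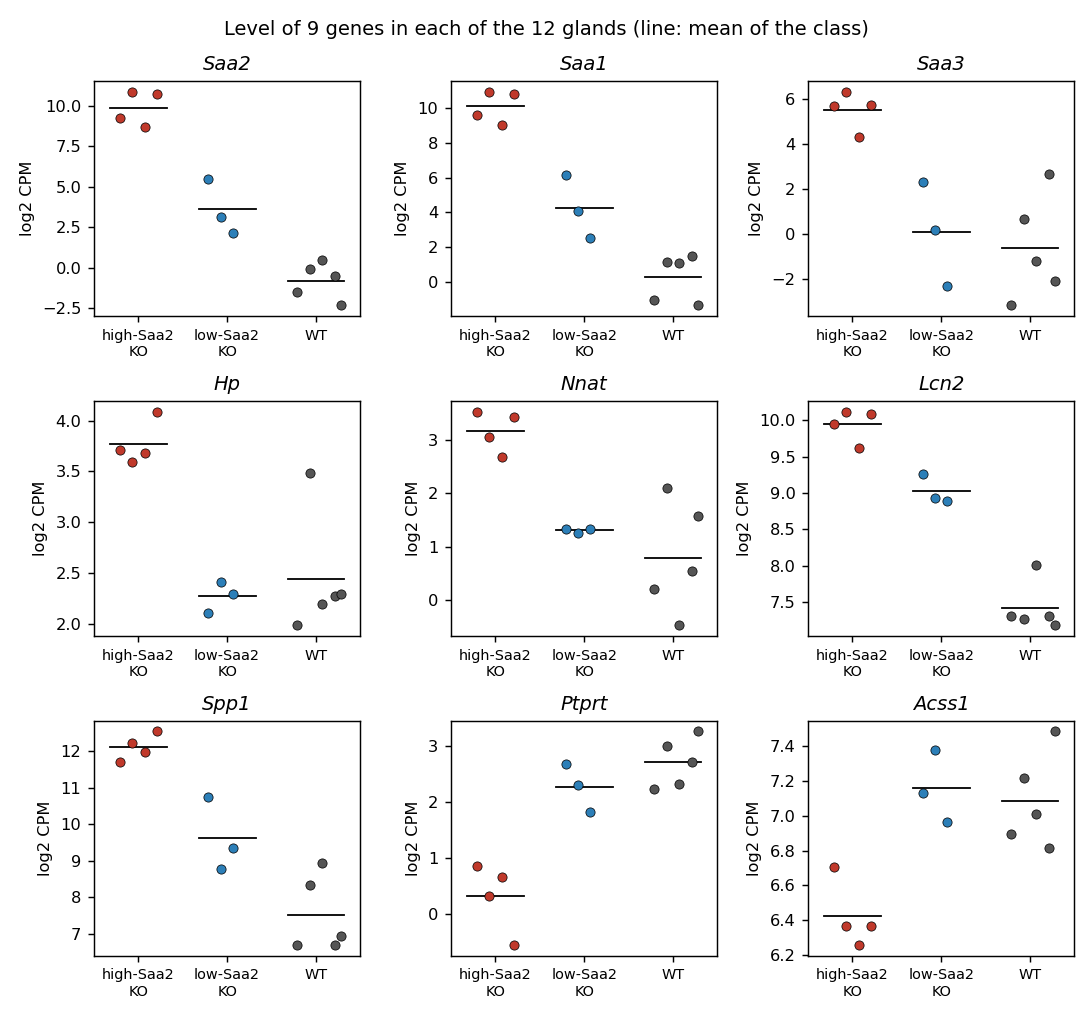
Each panel plots the log2 CPM of 1 gene (vertical axis) in each gland, with the 4 high-Saa2 KO glands in red, the 3 low-Saa2 KO glands in blue, the 5 WT glands in grey and a line at each class mean. Saa2, which chose the classes, and Saa1 lay between WT and the high-Saa2 glands in the low-Saa2 class, while Hp and Acss1 in the low-Saa2 class lay within the WT range.

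In 1240 genes (10.5%) the classes did not overlap, 539 of them higher in every high-Saa2 gland (4.56%) and 701 lower (5.92%). With a difference of at least 1 there were 82 higher and 33 lower. Over all genes the median difference was -0.02, and 44.9% of differences were above 0. After cyclic loess the balance turned, with 627 genes higher and 577 lower. Without Saa1 and Saa2, the 1st principal component of the 7 KO glands held 31.3% of the variance, and the high-Saa2 glands, at -1.04 to 41.8, did not overlap the low-Saa2 glands, at -34.0 to -12.3. Its ends were KO replicate 4 (41.8) and KO replicate 6 (-34.0), also the ends of the skeletal muscle score (2.78 and -1.20). The next glands of their classes lay at 11.6 and -13.1, so the gap between the classes was narrower than the widest gap within each.

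**Figure D2:**
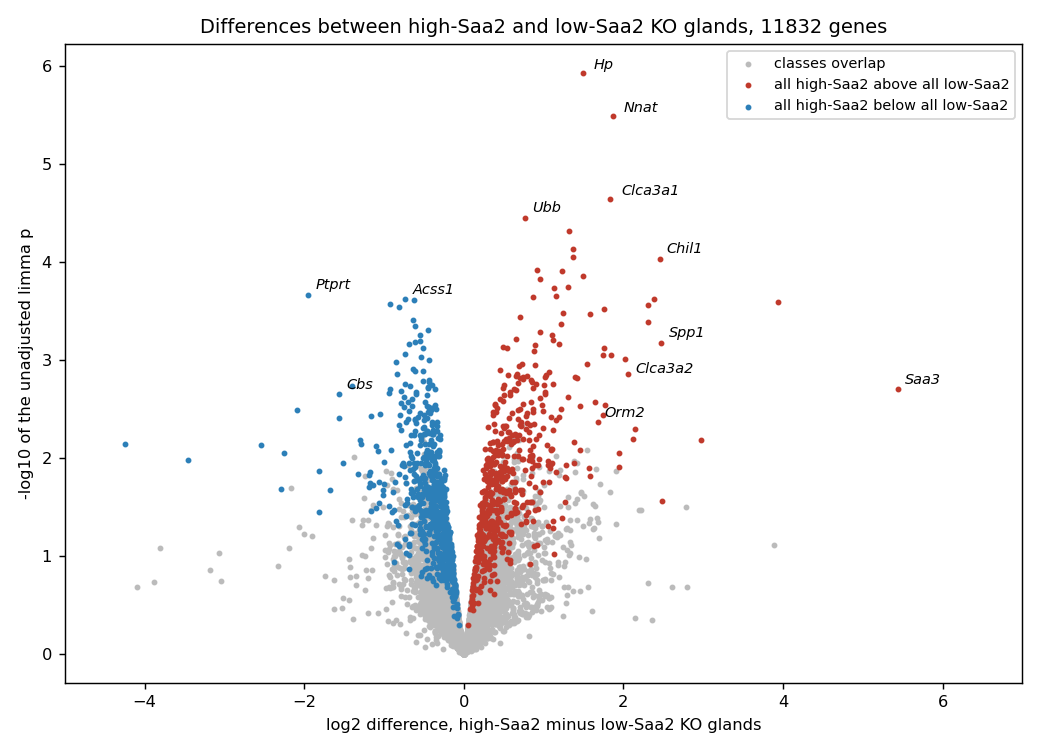
Each point is 1 of 11832 genes, with the log2 difference of high-Saa2 minus low-Saa2 KO glands on the horizontal axis and -log10 of the unadjusted limma p on the vertical axis. Red and blue points are the 539 and 701 genes whose classes do not overlap, Hp and Nnat stand at the top, and Saa3 stands farthest to the right.

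The approximate depth was 26.2 to 34.9 M reads in the high-Saa2 glands, 22.9 to 24.3 M in the low-Saa2 glands and 17.1 to 29.8 M in WT. Every high-Saa2 library was thus deeper than every low-Saa2 library. With the depth as a covariate, chosen after seeing the data, the difference of Hp was 1.34 and that of Nnat 1.25 (adjusted p = 0.111 for both). Skeletal muscle markers were higher by a median of 0.91, and all 22 measured of 25 had a difference above 0, but none passed and the classes overlapped for each. Their mean level relative to WT ran from 0.74 to 2.78 in the high-Saa2 glands and from -1.20 to 1.85 in the low-Saa2 glands, and their median difference was 0.01 without KO replicate 6. With this muscle score as a covariate Hp differed by 1.48 and Nnat by 1.79 (adjusted p = 0.0511 for both). Btn1a1 was at 5.10 to 6.02 in the high-Saa2 glands and at 5.66 to 5.82 in the low-Saa2 glands, against 11.03 to 11.23 in WT (difference -0.22, SE 0.18, adjusted p = 0.731).

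Acute-phase protein genes, leaving out Saa1 and Saa2, were, among lists with 10 or more measured members, the one with the largest share that separated the classes. Of 14 measured of 26, 1 rose (Hp), 0 fell and 13 did not pass. In 6 members every high-Saa2 gland lay above every low-Saa2 gland (42.9%, against 4.56% of all genes), all 14 differences were above 0, and their median was 0.88, against -0.02 over all genes. With day 10 libraries alone 10 members did not overlap (71.4%, against 13.6% of all genes). The WT mean lay nearer to the low-Saa2 than to the high-Saa2 mean in 14 of 14. The list was drawn up with earlier results of these data known, so its direction is no independent evidence.

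Lcn2, a lipocalin that sequesters iron from bacteria, stood at 9.95, 10.12, 9.62 and 10.08 in the high-Saa2 glands, at 9.26, 8.93 and 8.89 in the low-Saa2 glands and between 7.18 and 8.01 in WT. All low-Saa2 glands thus lay above all WT glands. The difference between the KO classes was 0.92 (SE 0.15, adjusted p = 0.140) and did not pass. Orm1, an acute-phase plasma glycoprotein, stood at 9.76, 10.75, 10.36 and 10.05 against 9.32, 8.63 and 8.10. The WT glands held 6.40 to 8.99, and the difference was 1.55 (SE 0.31, adjusted p = 0.224). Orm2, its paralog, stood at 8.20, 8.63, 7.81 and 7.21 against 6.90, 6.32 and 5.63, with WT between 1.66 and 4.64. It differed by 1.68 (SE 0.40, adjusted p = 0.286), and the split of reads between these 2 paralogs is uncertain.

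Within the low-Saa2 class the acute-phase genes were not level. KO replicate 5, the low-Saa2 gland with the most Saa2, held the highest low-class value in 8 of the 14 acute-phase members (57.1%), in 13 of 18 complement members (72.2%) and in 7 of 10 antimicrobial members (70.0%), against 33.6% of all genes. It did so in 2 of 13 cytokine and chemokine members (15.4%), and, outside the inflammatory lists, in 22 of 22 skeletal muscle and 24 of 38 respiratory chain members (63.2%). The order did not follow Saa2 throughout. KO replicate 7, with the least Saa2, was highest of the low class in 5 of the 14 acute-phase members (35.7%, against 31.1% of all genes). KO replicate 6, with more Saa2, was so in 1 (7.14%, against 35.2%). Within the high-Saa2 class, KO replicate 2 held the highest value in 9 of the 14 acute-phase members (64.3%), against 22.1% of all genes, and KO replicate 3 in 0. For KO replicate 2 this was 2 of 18 in complement (11.1%), 3 of 10 in the antimicrobial list and 4 of 13 in cytokines and chemokines (30.8%). KO replicate 2 was also the gland with the most Saa2, and KO replicate 3 the high-Saa2 gland with the least.

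**Figure D3:**
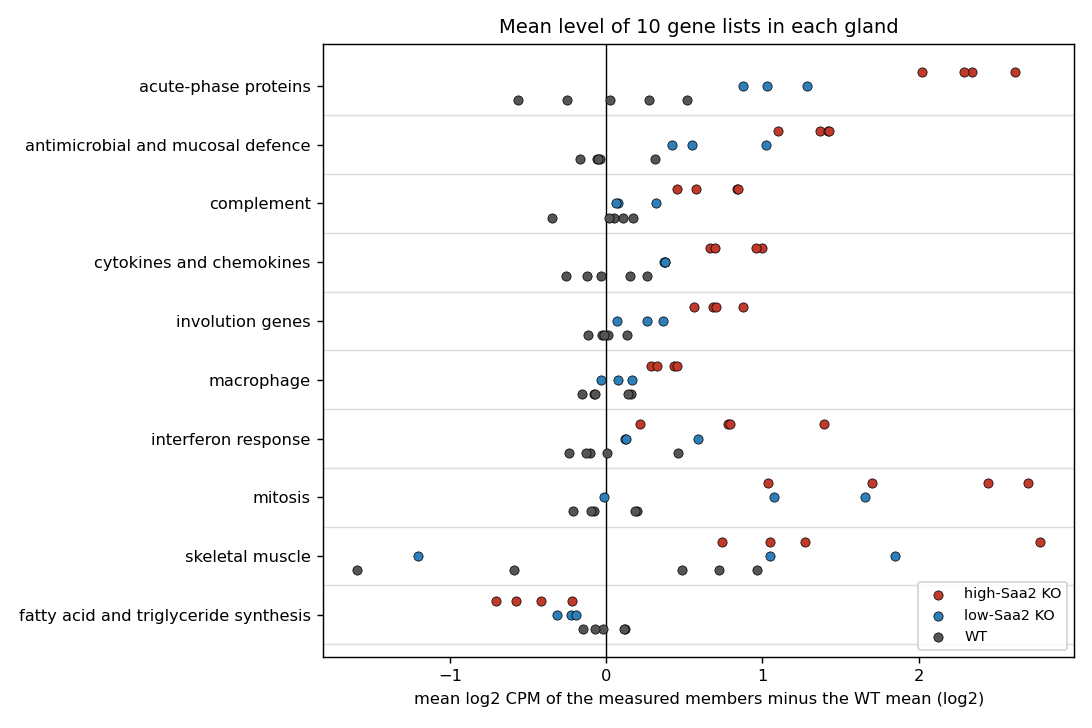
Each point is 1 gland, and the horizontal axis is the mean log2 CPM of the measured members of a gene list minus the WT mean, for 10 lists (vertical axis). The acute-phase scores of the high-Saa2 glands, at 2.02 to 2.62, lie above those of the low-Saa2 glands, at 0.88 to 1.28, while the skeletal muscle scores of the classes overlap.

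Chemokines were the list with the next largest share. Of 13 measured cytokines and chemokines of 35, none passed, but 5 lay higher in every high-Saa2 gland (38.5%, against 4.56% of all genes), and the median was 0.45 (0.23 with depth as a covariate). The count was 9 with day 10 libraries alone (69.2%, against 13.6%). Cxcl1, which attracts neutrophils, stood at 2.64, 3.67, 2.46 and 2.01 in the high-Saa2 glands and at 1.33, 0.16 and 1.30 in the low-Saa2 glands, with WT between -1.25 and 0.10. It differed by 1.77 (SE 0.42, adjusted p = 0.264). The others were Ccl9 (1.20), Ccl6 (0.72), both attractants of myeloid cells, Cx3cl1 (0.54), the membrane-bound fractalkine, and Cxcl16 (0.43), the ligand of Cxcr6. Only 1 of 18 neutrophil markers was measured, Cd177, whose classes overlapped (0.81, adjusted p = 0.542), and 0 of 15 markers of T and NK cells.

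Complement genes had 0 of 18 measured members past the threshold and 5 that lay higher in every high-Saa2 gland (27.8%, against 4.56% of all genes). The count was 11 without KO replicate 3 (61.1%, against 8.83% of all genes), 9 of 18 without KO replicate 5 (against 7.82% of all genes) and 12 with day 10 libraries alone (66.7%, against 13.6%). Without any other single KO library it was 5 to 7 (27.8% to 38.9%, against 6.35% to 8.59% of all genes). Cfb, the factor B of the alternative pathway, stood at 3.29, 2.51, 2.75 and 3.49 against 2.33, 1.85 and 1.78 in the low-Saa2 glands and 1.19 to 2.26 in WT. C3ar1, the receptor of the C3a fragment, was higher by 1.06 (SE 0.24), Cfp, the stabilising factor properdin, by 0.88 (SE 0.24), and C1qc, a subunit of the first component, by 0.33 (SE 0.11), none of which passed. C4b, a component of the classical pathway, differed by 1.06 with overlapping classes. The median of the list was 0.41, and 0.09 with depth as a covariate.

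Of 10 measured antimicrobial genes none passed, and 3 lay higher in every high-Saa2 gland (30.0%, against 4.56% of all genes), or 5 with day 10 libraries alone (against 13.6%). Chil1, a chitinase-like protein of milk and inflamed tissue, stood at 1.67, 1.51, 0.76 and 2.35 against -0.25, -1.08 and -1.31, with WT between -2.34 and -1.19. It differed by 2.45 (SE 0.39, adjusted p = 0.136), or 5.48-fold. Ltf, the iron-binding lactoferrin, was abundant in all glands, at 11.11 to 11.56 in the high-Saa2 glands, 10.51 to 11.03 in the low-Saa2 glands and 9.32 to 9.85 in WT. Slpi, a secreted protease inhibitor, differed by 1.39 (SE 0.42, adjusted p = 0.364), and Defb1, a beta-defensin, by 0.90 with overlapping classes. The list median of 0.43 was 0.18 among genes of at least 1 log2 CPM on average.

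Genes of mammary involution and of the Stat3 pathway showed smaller differences. Of 28 measured involution genes none passed, 6 lay higher in every high-Saa2 gland (21.4%, against 4.56% of all genes), and the median was 0.36. The count was 11 without KO replicate 7 (39.3%, against 8.59% of all genes) and 13 with day 10 libraries alone (46.4%, against 13.6%). Without any other single KO library it was 6 to 9 (21.4% to 32.1%, against 6.35% to 8.83% of all genes). Spp1, which encodes osteopontin, a secreted phosphoprotein of milk and macrophages, stood at 11.71, 12.21, 11.97 and 12.53 in the high-Saa2 glands and at 10.75, 8.78 and 9.36 in the low-Saa2 glands. WT glands held 6.70 to 8.93, so the low-Saa2 glands lay between WT and the high-Saa2 glands on average. Spp1 differed by 2.48 (SE 0.44, adjusted p = 0.188), or 5.56-fold, and it was the gene called without KO replicate 5. Mmp3, a matrix metalloproteinase, was higher by 1.02 (SE 0.23, adjusted p = 0.234). Stat3 itself, the transcription factor downstream of gp130 cytokines, stood at 6.13, 6.60, 6.56 and 6.12 against 5.98, 5.70 and 5.94, and differed by 0.48 (SE 0.14, adjusted p = 0.323). Junb, of the AP-1 transcription factor family, differed by 0.87, and Osmr, the oncostatin M receptor, by 0.63 with overlapping classes. In the gp130, Lif and Stat3 list as a whole 3 of 21 members lay higher in every high-Saa2 gland (14.3%, against 4.56% of all genes), with a median of 0.17.

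All 15 macrophage markers were measured, none passed, 4 lay higher in every high-Saa2 gland (26.7%, against 4.56% of all genes), and the median was 0.31 (0.12 without KO replicate 6, 0.19 with depth or with the muscle score as a covariate). Non-overlapping members numbered 7 without KO replicate 3 (46.7%, against 8.83% of all genes) and 8 with day 10 libraries alone (53.3%, against 13.6%). Without any other single KO library 4 to 6 lay higher without overlap (26.7% to 40.0%, against 6.35% to 8.59% of all genes). Their mean level relative to WT was 0.29 to 0.46 in the high-Saa2 glands, -0.03 to 0.16 in the low-Saa2 glands and -0.15 to 0.16 in WT. Lyz2, the myeloid lysozyme, stood at 5.32, 5.35, 5.29 and 6.16 against 5.23, 4.73 and 4.69. C1qb, a complement subunit made by macrophages, differed by 0.32. In such whole-tissue samples more cells of a type and more RNA per cell cannot be told apart, and the part of macrophages in the other lists was not tested. Of 13 hepatocyte markers 2 were measured, Fgg at -1.67 to 1.85 in the high-Saa2 glands and -0.82 to -0.15 in the low-Saa2 glands being one of them.

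The genes of smallest p outside these lists had mixed functions. Clca3a1, of a family of chloride channel regulators, stood at 2.16, 3.13, 3.02 and 3.16 against 1.23, 1.04 and 0.82, with WT between -0.69 and 0.19, and missed the threshold (1.84, SE 0.25, adjusted p = 0.0891). Its paralog Clca3a2, which can share its reads, stood at 7.48, 9.04, 7.63 and 8.06 against 6.32, 5.76 and 6.01, while WT held 1.19 to 3.83. Ubb, a polyubiquitin gene, differed by 0.76 (SE 0.11, adjusted p = 0.104). Ptges, the inducible prostaglandin E synthase, was higher by 1.37 (SE 0.21, adjusted p = 0.136) and Sox4, a transcription factor of progenitor cells, by 1.37 (SE 0.21, adjusted p = 0.136). The remaining genes of this group were Sbsn (1.50), which encodes suprabasin of stratified epithelia, Bglap3 (1.32), of the osteocalcin family, Btg1 (1.30), an antiproliferative factor, Sncg (1.23), gamma-synuclein, and Gpc1 (0.95), a glypican of the cell surface. None of these passed, with an adjusted p of 0.115 to 0.140, and for all but Bglap3 the WT mean lay nearer to the low-Saa2 glands.

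No gene fell by the test, and the genes of smallest p in this direction are given with that limit. Ptprt, a receptor-type tyrosine phosphatase, stood at 0.86, 0.32, 0.66 and -0.54 in the high-Saa2 glands and at 2.68, 2.30 and 1.83 in the low-Saa2 glands, which overlapped the WT range of 2.23 to 3.27. It differed by -1.95 (SE 0.34, adjusted p = 0.140). Btg3, an antiproliferative protein, differed by -0.93 (SE 0.17, adjusted p = 0.140), and here WT, at 5.35 to 6.14, lay nearer to the high-Saa2 glands. The same held for Pard6g, named below, with a mean of 3.54 in WT, 3.45 in the high-Saa2 and 4.09 in the low-Saa2 glands. Rab30 (-0.81), a Golgi GTPase, Pank1 (-0.69), a kinase of coenzyme A synthesis, Fam46c (-0.63), a poly(A) polymerase, Pard6g (-0.63), of a cell polarity complex, St6galnac2 (-0.62), a sialyltransferase, Tc2n (-0.61), Eef2k (-0.55), the kinase of elongation factor 2, Slc22a23 (-0.55), a solute carrier, and Tmem120a (-0.45) had an adjusted p of 0.140 to 0.188.

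Fatty acid and triglyceride synthesis was, among lists of that size, the one with the largest share of members lower in every high-Saa2 gland. Of 41 measured members of 46 none passed, 5 were lower in every high-Saa2 gland (12.2%, against 5.92% of all genes) and 0 higher, and the median was -0.23. The count of lower members was 13 without KO replicate 1 (31.7%, against 9.26% of all genes), 8 without KO replicate 5 (19.5%, against 10.8%), 8 without KO replicate 7 (19.5%, against 10.9%) and 9 with day 10 libraries alone (22.0%, against 16.9%). It was 7 without KO replicate 3 (17.1%, against 12.2%) and 5 without KO replicate 2, 4 or 6 (12.2%, against 7.62% to 8.13%). The median was -0.14 without KO replicate 2 and -0.47 with depth as a covariate. Acss1, a mitochondrial acetyl-CoA synthetase, stood at 6.70, 6.37, 6.26 and 6.36 against 7.13, 7.38 and 6.97, with WT at 6.82 to 7.49. It differed by -0.73 (SE 0.13, adjusted p = 0.140). Lpin1, a phosphatidate phosphatase, stood at 7.31, 6.61, 6.84 and 7.08 against 7.84, 7.60 and 7.63, and differed by -0.73 (SE 0.16, adjusted p = 0.203). The others were Agpat2 (-0.66), an acyltransferase of glycerolipid synthesis, Acsl1 (-0.38), which activates long fatty acids, and Acaca (-0.27), which makes malonyl-CoA. The list's mean level relative to WT overlapped between the classes, at -0.70 to -0.22 in the high-Saa2 and -0.32 to -0.19 in the low-Saa2 glands, lowest in KO replicate 2.

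Other genes of milk secretion that were lower in every high-Saa2 gland were few. Pthlh, parathyroid hormone-like hormone, differed by -0.78 (SE 0.19, adjusted p = 0.241), Egf, the epidermal growth factor of milk, by -0.62 (SE 0.18, adjusted p = 0.305), Atp2b2, the apical calcium pump of milk secretion, by -0.51 (SE 0.14, adjusted p = 0.297), Folr1, a folate receptor, by -0.40 and Slc2a1, a glucose transporter, by -0.37. Among 24 measured milk protein genes 3 lay higher without overlap (Spp1, Chil1 and Ltf) and 2 lower (Pthlh and Folr1), with a median of -0.09. Those shares, 12.5% and 8.33%, compare with 4.56% and 5.92% of all genes. The list of EGF receptor ligands and receptors, which holds Egf, had 3 of 11 members higher (27.3%) and 1 lower (9.09%). Ion and water transport, which holds Atp2b2, had 3 of 25 higher (12.0%) and 2 lower (8.00%). Lactose synthesis and glucose supply, which holds Slc2a1, had 1 of 15 higher and 1 lower (6.67% each). The falls of these genes were thus not shared by their lists. Cbs, the first enzyme of transsulfuration, stood at 1.14, 1.44, 2.19 and 0.36 against 3.00, 2.93 and 2.59, and at 3.30 to 4.43 in WT, so the low-Saa2 glands lay between WT and the high-Saa2 glands. It differed by -1.56 (SE 0.37, adjusted p = 0.242), and Trib3, a pseudokinase induced by Atf4, by -0.67 (SE 0.16, adjusted p = 0.234). They were the only 2 of 28 measured members of the Atf4 and amino acid supply list that were lower without overlap. That share, 7.14%, was near the 5.92% of all genes, and the list median was -0.06.

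In several of the next lists the count of members that separated the classes changed when a single gland was left out. Mitotic genes had a median of 1.17, and all 29 measured differences were above 0, but 2 members did not overlap (6.90%, against 4.56% of all genes) and none passed. The count was 16 without KO replicate 3 (55.2%, against 8.83% of all genes), also 16 with day 10 libraries alone (55.2%, against 13.6%), and 11 without KO replicate 7 (37.9%, against 8.59%). It was 3 without KO replicate 6 (10.3%, against 6.47%) and stayed at 2 (6.90%) without KO replicate 1, 2, 4 or 5 (against 6.35% to 7.82%). The median was 0.64 without KO replicate 5, whose mitotic score relative to WT was -0.01 against 1.08 and 1.66 in the other low-Saa2 glands and 1.03 to 2.70 in the high-Saa2 glands. Bub1b, a spindle checkpoint kinase, and Aurkb, the kinase of chromosome segregation, were the non-overlapping members (1.10 and 1.57). Both were low, with KO means of 0.73 and -0.43 log2 CPM. Only 10 mitotic members averaged at least 1 log2 CPM, and of these 0 did not overlap (against 4.51% higher of all such genes). DNA replication genes had a median of 0.59 with 2 of 30 not overlapping (6.67%, against 4.56% of all genes), and 0.31 without KO replicate 5, 0.38 without KO replicate 4 and 0.37 with depth as a covariate. Their count was 14 without KO replicate 7 (46.7%, against 8.59%), and 8 both without KO replicate 3 (26.7%, against 8.83%) and with day 10 libraries alone (26.7%, against 13.6%). Without any other single KO library it was 2 or 3 (6.67% or 10.0%, against 6.35% to 7.82%).

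Interferon response genes had a median of 0.52 with 1 of 36 not overlapping (2.78%, against 4.56% of all genes). The count was 17 without KO replicate 2 (47.2%, against 6.46% of all genes), 16 without KO replicate 5 (44.4%, against 7.82%) and 4 without KO replicate 6 (11.1%, against 6.47%). It was 2 (5.56%) without KO replicate 1 (against 6.66%), without KO replicate 4 (against 6.35%) or with day 10 libraries alone (against 13.6%), each below the share of all genes. It stayed at 1 (2.78%) without KO replicate 3 (against 8.83%) or KO replicate 7 (against 8.59%). The median was 0.28 without KO replicate 4, 0.20 with day 10 libraries alone, 0.29 with the muscle score and 0.17 with depth as a covariate, and KO replicate 2 scored 0.22, below KO replicate 5 at 0.59. Class I and II MHC genes had a median of 0.37 and 4 of 22 members not overlapping (18.2%, against 4.56% of all genes), among them H2-Q4 (0.79) and Nlrc5 (1.09), an activator of class I genes. The count was 12 without KO replicate 2 (54.5%, against 6.46%) and 8 without KO replicate 5 (36.4%, against 7.82%). Without any other single KO library it was 4 or 5 (18.2% or 22.7%, against 6.35% to 8.83%). The median was 0.22 without KO replicate 4, 0.19 with day 10 libraries alone, 0.20 with the muscle score and 0.02 with depth as a covariate.

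**Figure D4:**
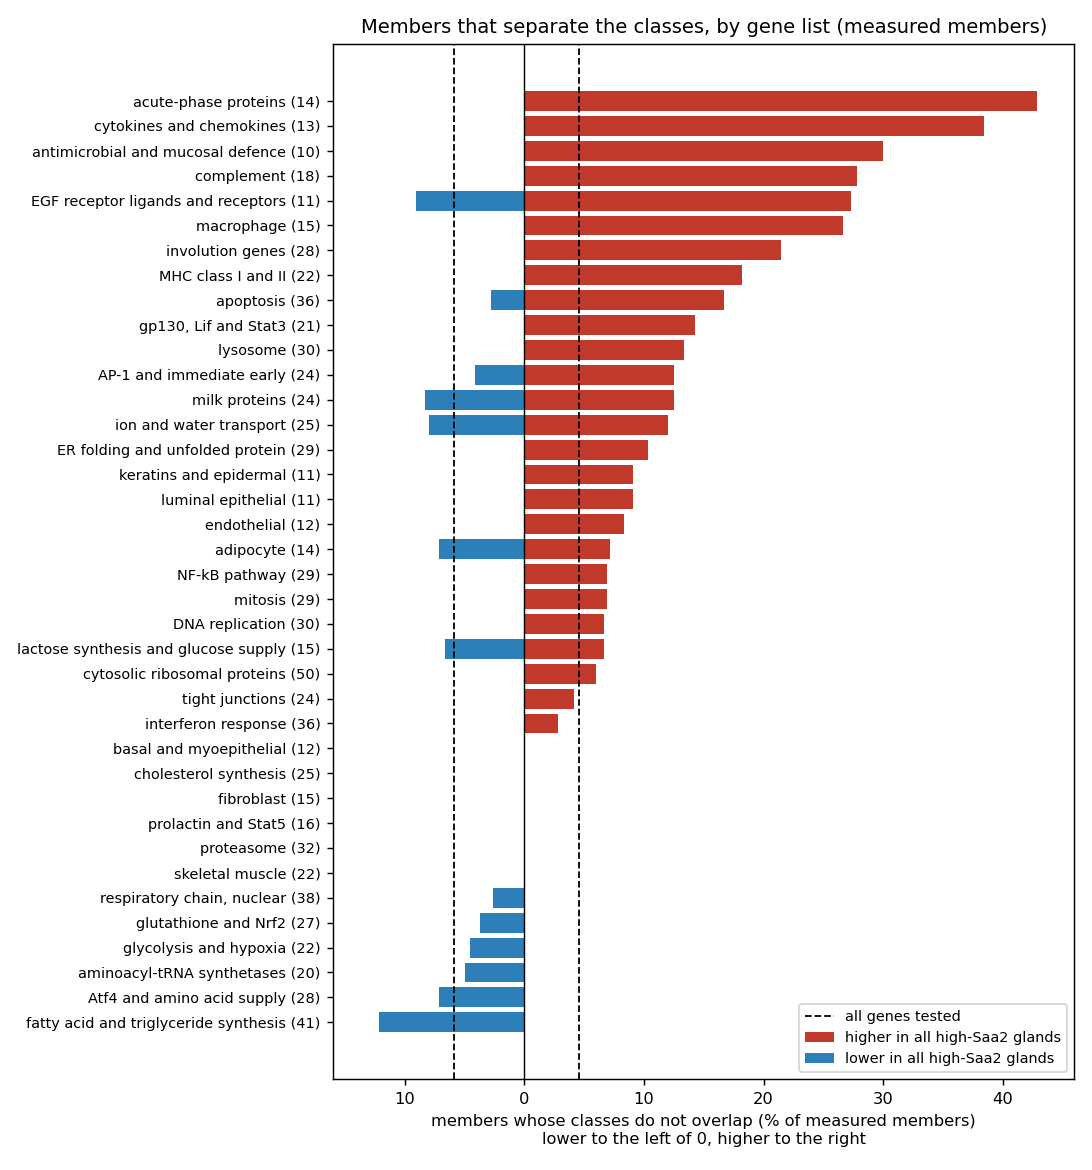
Bars give the percent of measured members of each list (number in brackets, lists of 10 or more) that lay higher (red, to the right) or lower (blue, to the left) in all high-Saa2 glands, with dashed lines at the 4.56% and 5.92% of all genes. Acute-phase genes reach 42.9% to the right and fatty acid and triglyceride genes 12.2% to the left.

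Of 36 measured apoptosis genes none passed, 6 lay higher (16.7%, against 4.56% of all genes) and 1 lower (2.78%, against 5.92%) without overlap, and the median was 0.18. The higher count was 10 without KO replicate 5 (27.8%, against 7.82%) and with day 10 libraries alone (27.8%, against 13.6%). Without any other single KO library it was 6 to 8 (16.7% to 22.2%, against 6.35% to 8.83%). The lower count was 3 without KO replicate 3 (8.33%, against 12.2%) and with day 10 libraries alone (8.33%, against 16.9%). It was 2 (5.56%) without KO replicate 5 (against 10.8%) or KO replicate 7 (against 10.9%). The median was 0.10 with day 10 libraries alone and 0.11 without KO replicate 4 or with the muscle score as a covariate. Cdkn1a, the cell cycle inhibitor p21, stood at 3.11, 3.20, 2.35 and 3.25 against 2.06, 2.08 and 2.26, and differed by 0.84 (SE 0.21, adjusted p = 0.262). Casp4, the caspase of the non-canonical inflammasome, differed by 0.34, Bax, a pore-forming Bcl-2 protein, by 0.41 and Apaf1, the apoptosome scaffold, by 0.73, while Diablo, an inhibitor of IAP proteins, differed by -0.41. For Bax and Apaf1 the WT mean lay nearer to the high-Saa2 glands. Of epithelial and stromal markers 0 of 12 basal and myoepithelial, 0 of 15 fibroblast and 1 of 11 luminal members (9.09%, against 4.56% of all genes) did not overlap, the last being Krt18 (0.29), a keratin of simple epithelia. Of the fibroblast markers 5 lay higher without overlap when KO replicate 3 was left out (33.3%, against 8.83%), 5 with day 10 libraries alone (33.3%, against 13.6%) and 4 without KO replicate 7 (26.7%, against 8.59%). None did so without any other single KO library.

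WT glands lay nearer to the low-Saa2 than to the high-Saa2 glands in most genes that separated the classes. The WT mean was nearer to the low-Saa2 mean in 417 of the 539 genes that were higher (77.4%) and in 561 of the 701 that were lower (80.0%), against 66.3% of all genes. Among the 539 genes the WT mean lay beyond the low-Saa2 mean in 280 (51.9%), between the 2 class means in 216 (40.1%) and beyond the high-Saa2 mean in 43 (7.98%). Over all genes the same shares were 50.8%, 25.3% and 23.8%, so the first was near that of all genes. The low-Saa2 glands were thus not all alike in their position: for Hp and Acss1 they lay within the WT range, and for Lcn2, Orm2 and Clca3a2 they lay above every WT gland. These shares were chosen as a description after seeing the data and have no test.

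The number of calls changed with the libraries used and with how the class was coded. Days 8 and 11 are in the high-Saa2 class only. With day 10 libraries alone, KO replicates 1 and 2 against 5, 6 and 7, 75 genes were called, 39 higher and 36 lower, and Hp (1.38, adjusted p = 0.0103) and Nnat (2.00, adjusted p = 0.00411) were among them. So were Lcn2 (adjusted p = 0.0246), Chil1 (0.0321), Sbsn (0.0130) and Clca3a1 (0.0499). Without KO replicate 3, the day 8 gland, 38 genes were called, 25 higher and 13 lower. With the Saa2 level as a continuous covariate over the 7 KO glands 13 genes were called, 11 higher and 2 lower per unit of Saa2. Among them were Saa3 (slope 0.89 log2 per log2 unit of Saa2, adjusted p = 0.0121), Spp1 (0.39, adjusted p = 0.0101), Chil1 (0.39, adjusted p = 0.0101), Orm1 (0.25, adjusted p = 0.0247), Lcn2 (0.15, adjusted p = 0.0101) and, with a falling slope, Fam46c (-0.10, adjusted p = 0.0457), while Hp (adjusted p = 0.0675) and Nnat (adjusted p = 0.0528) were not. With the 12 libraries in 3 groups, which lets WT share the estimate of the spread, 0 genes passed by limma and 1425 had an unadjusted p under 0.05.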

How the data were processed

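PolyA RNA of 12 mouse mammary glands was sequenced, 1 library per mouse. Per the submitters' processing notes, the upstream tools were limma 3.34.5, RSEM 1.3.0, STAR 2.5.2b, Trimmomatic 0.33 and bcl2fastq 2.17, in no stated order. The builds named there are mm10 and hg19, with no role given. The authors deposited log2 CPM per library for 11834 genes, quantile-normalized as the values show. The deposited table's fold change (log2), score (the moderated t statistic) and p-value columns compare KO with WT and were not used.

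The classes were taken from the Saa2 column, and the log2 values of the 7 KO libraries were refitted with limma 3.58.1 (R 4.3.3; eBayes with trend and robust options), with Benjamini-Hochberg adjustment over 11832 genes. Calls required an adjusted p under 0.05. SE is that of the moderated fit. An exact permutation of 4 against 3 glands cannot go below p = 0.0571 and was not used. The rule for named genes took Saa2, Saa1 and Btn1a1, the 12 called genes of largest difference per direction, filled by smallest p (ordinary symbol, mean of at least 1 log2 CPM), and up to 5 members of smallest p per list, of which the text gives a part chosen after their values were seen. The classes, gene lists and members were chosen with earlier results of these data known. A list is described by its counts and median, without a test, and its score is the mean log2 CPM of its members minus the WT mean. Some genes belong to more than 1 list, so the counts of such lists are not separate results. Examples are C1qc (macrophage and complement), Stat3 (Stat3 pathway and involution) and Spp1 (involution and milk proteins). Counts of genes whose classes do not overlap were added after seeing the data. Depth is approximate, from the step between values shared by many genes, since total counts are not given in the sources used here; no counting interval can be had. As each mouse gave 1 library, biological and technical spread cannot be told apart. The fit was run on simulated data only to see that it returned the mean of the added differences. Genes there were independent and no class was chosen on Saa2, so the run does not test the calls. Gene positions are from GENCODE M21 and promoters from RefSeq (GRCm38.p6). Python 3.11.15 and matplotlib 3.10.9 drew the figures.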

Additional observations from a re-analysis of the deposited data

Results flagged for a closer look

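In 212 groups of 4 high-Saa2 KO or 5 WT glands, over the genes and lists described and Saa1, Saa2 and Btn1a1, 19 held a gland whose gap to its nearest neighbour passed Dixon's 95% value. Chance flags about 1 in 20 groups, and the 3 low-Saa2 glands are too few for this rule.

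In the high-Saa2 class KO replicate 4 stood apart high for Ptges (4.52, the others 3.70 to 3.81), Lyz2 (6.16, the others 5.29 to 5.35), Irgm1 (4.01, the others 3.47 to 3.55) and Nlrc5 (2.23, the others 0.91 to 0.99). KO replicate 3 stood apart low for Osmr (1.88, the others 2.56 to 2.57) and Cdkn1a (2.35, the others 3.11 to 3.25). KO replicate 1 stood apart low for Clca3a1 (2.16, the others 3.02 to 3.16) and Casp4 (2.86, the others 3.06 to 3.09), and KO replicate 2 for Acsl1 (9.57, the others 9.81 to 9.85).

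Among the WT glands, replicate 3 was high for Lcn2 (8.01), Orm1 (8.99) and the score of the antimicrobial list (0.31, the others -0.17 to -0.04). WT replicate 3 was also high for Btn1a1 (11.23), where the other 4 share 1 value of 11.03. Ltf took the same values in KO glands (11.23 in replicates 1 and 3, 11.03 in replicate 5). Such values are shared steps of the quantile-normalized scale, so Dixon's rule does not measure this gap. WT replicate 2 was high for Hp (3.48) and low for Bub1b (-0.93), and WT replicate 5 was low for Ptges (1.72) and Chil1 (-2.34). WT replicate 1 was low for Oas2 (-0.59), and WT replicate 4 was high for Irgm1 (4.26).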

How the results depend on the processing

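The number of genes called moved most. It was 2 (2 higher, 0 lower) as reported and after cyclic loess, after median centring, among genes averaging 1 log2 CPM or more or with a difference of at least 1 besides. Median centring could move little on quantile-normalized values. The bound of 1 could not drop Hp or Nnat, whose differences exceed it. With 1 KO library left out the number called ran from 0 to 38, with 0 to 25 higher and 0 to 13 lower. The highest count came without KO replicate 3, and the count was 4 without KO replicate 1, 1 without replicate 2, 4 or 5, and 0 without replicate 6 or 7, where 616 and 1006 genes had an unadjusted p under 0.05. With day 10 libraries alone it was 75 (39 higher, 36 lower), with array weights 12 (12 higher), with Saa2 as a continuous covariate 13 (11 higher, 2 lower) and with approximate depth as a covariate 4 (2 higher, 2 lower). It was 0 with the 12 libraries in 3 groups, without the trend and robust options (1143 at an unadjusted p under 0.05), with the muscle score as a covariate (783) and at an adjusted p under 0.01, and 3 at an adjusted p under 0.1. The cause of these moves was not tested. Genes that did not overlap numbered 539 higher and 701 lower, 751 to 1045 higher and 902 to 1447 lower with 1 library left out, and 1613 and 1995 with day 10 libraries alone, where fewer libraries make a separation easier. Of 89 genes followed, over 1504 alternative values, none changed direction and 54 values newly passed the threshold. The 89 were picked by their values in these data, so an unchanged direction was largely fixed beforehand. Only Hp and Nnat had a call to lose, and all 18 values that no longer passed were theirs. The acute-phase median of 0.88 ran from 0.72 (depth as a covariate) to 1.03 (day 10 alone), apart from the slope on Saa2, and 6 to 10 of its 14 members did not overlap under any alternative that counted them. WT was nearer the low-Saa2 glands in 78.9% of genes that did not overlap by its mean, and by its median or its day 10 glands this moved by less than 1.5 times. No rise from 78.9% could pass that bound, and a large fall would stay within it, so it says little about how stable the share is. No paired analysis was possible because the classes share no replicate numbers, 1 to 4 against 5 to 7. The approximate depths of the classes do not overlap, so depth and class cannot be told apart. Depth as a covariate, and the counts without overlap, were added after seeing the data.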

Other observations

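Several genes outside the naming rule, singled out after their values were seen, also separated the classes with a difference of over 1.5 but did not pass the test. Higher in every high-Saa2 gland were Cdhr1, a cadherin-related protein (2.12, SE 0.53, adjusted p = 0.320 by limma), Angptl4, an inhibitor of lipoprotein lipase (2.06, SE 0.41, adjusted p = 0.234), and Lrg1, a leucine-rich glycoprotein of the acute phase (1.95, SE 0.57, adjusted p = 0.375). Thbs1, the matrix protein thrombospondin 1, was higher by 1.75 (SE 0.40, adjusted p = 0.270), Ms4a6d, a membrane protein of myeloid cells, by 1.75 (SE 0.36, adjusted p = 0.203), and Igfbp5, an IGF-binding protein of involution, by 1.58 (SE 0.48, adjusted p = 0.386). Lower in every high-Saa2 gland were Ppp1r3b, which targets a phosphatase to glycogen (-2.25, SE 0.65, adjusted p = 0.346), and Acsl6, an acyl-CoA synthetase (-1.82, SE 0.56, adjusted p = 0.379).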
